A study of Mus musculus with 195 samples.

Results

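The ESC-2i cells are single mouse embryonic stem cells (ESC) that were grown without serum in N2 and B27 supplements, LIF at 10 ng/ml and a pair of inhibitors, PD0325901 at 1 µM, which blocks the kinase MEK, and CHIR99021 at 3 µM, which blocks the kinase GSK3. They belong to the 46C line, which carries a Sox1-GFP reporter and was derived from E14tg2a ESC. The labels give 48 such cells, and the 33 of them that the authors kept in their table of transcript molecules per gene are described here, out of 107 cells in that table and 195 samples in the series. BATSeq, the assay used, captures the 3′ end of polyadenylated RNA and counts molecules by a unique molecular identifier (UMI). A captured molecule thus gives 1 count whatever the length of its gene. The paper reports that most RNA molecules of a cell are not observed, so a gene without a count may still have had RNA in that cell. The table also holds 33 cells of the same line in 10% serum with LIF and without the inhibitors (ESC-FCS) and 41 neural stem cells (NSC) that were differentiated from the line and grown with EGF and bFGF. Small cells were sorted by Hoechst stain and scatter for the DNA content of G0 or G1 (G1 in the labels), and cDNA of neighbouring wells was pooled until each of 2 library batches held 24 cells. Of the 33 cells, 17 came from batch 1 (plate rows A to D) and 16 from batch 2 (rows E to H). Both batches used the same 24 cell barcodes and were told apart by a batch barcode. Nothing in the labels says that more than 1 culture was sampled. Differences between cells below are therefore differences within 1 culture, their p-values measure the spread between these cells, and levels of ESC-FCS and NSC are given beside them without a test.

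In mouse ESC, signals through MEK and ERK push cells towards differentiation, whereas inhibition of GSK3 stabilizes β-catenin and lifts repression by Tcf7l1, and LIF acts through STAT3. Under both inhibitors the cells are held in naive pluripotency, the state of the early epiblast, by a network of transcription factors that includes Nanog, Esrrb, Klf2, Tfcp2l1 and Zfp42 (Rex1). In serum, expression of several of these factors is known to fluctuate between cells, and the 2i medium is generally regarded as a more homogeneous condition. The question taken up here is what these cells expressed, and which genes differed between cells by more than the counting of molecules would give.

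The 33 cells held 368362 molecules on genes. A cell had between 5342 and 21050 molecules (median 10864) on 2426 to 5950 genes (median 3980), each molecule being read 12.4 times on average. Of 15399 gene IDs with any molecule, 229 were seen in all 33 cells. Molecules on genes per molecule of the ERCC spike-in transcripts, which were added in equal amount to each cell, ranged from 5.62 to 18.8 (median 11.9). The median was 11.6 in batch 1 and 13.2 in batch 2. Over 528 pairs of cells, the mean Pearson correlation of genes was 0.634 (0.544 to 0.706), with 0.639 within and 0.629 across batches and 0.641 for the 12 cross-batch pairs that shared a cell barcode. No pair of cells held identical values. The 15 cells that were not kept had 40 to 995 molecules.

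The cells were checked against the markers of their label. Nanog, Zfp42, Tdgf1 (Cripto, the Nodal co-receptor), Klf2 and Esrrb were all present in 24 cells, 6 cells held 4 of the 5 and 3 cells held 3. Summed, the 5 markers made up 13.5 to 40.2 molecules per 10000 molecules on genes of a cell (median 22.7). Pooled levels in ESC-2i and ESC-FCS were 4.67 and 3.00 per 10000 for Nanog, 1.66 and 1.15 for Zfp42 and 5.24 and 5.03 for Tdgf1. For Klf2 they were 4.29 and 4.19, and for Esrrb 8.14 and 6.22. The markers thus show ESC and were not a check of the medium. The RNA ends at which these markers were counted are printed here to give the sites behind the counts. Each line is the last 30 bases before the most used cleavage site, in the sense of the transcript, read from GENCODE M21 transcripts (GRCm38), and capitals mark the polyadenylation signal AATAAA or its variant ATTAAA, which were searched for on the sense strand only.
Nanog (chr6:122714600-122714629, plus strand): gtttaaacaaAATAAAacactaattttacc
Zfp42 (chr8:43295079-43295108, minus strand): gaagattttagatgtttcaaAATAAAagga
Tdgf1 (chr9:110939611-110939640, minus strand): atgaatatgcacagtaaaaatgggaactct
Klf2 (chr8:72321316-72321345, plus strand): cttttttttaATTAAAgttttggatctttg
Esrrb (chr12:86521590-86521619, plus strand): atgtatctgaaatctAATAAAtaaggaaag

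These sites took 164 of 172 molecules of Nanog, 33 of 61 of Zfp42, 145 of 193 of Tdgf1, 156 of 158 of Klf2 and 288 of 300 of Esrrb. Zfp42 was the most divided of the 5, with 20 molecules in 14 cells at a site 842 nt past the annotated gene end. Klf2 ended in its terminal exon, 311 nt before the annotated end. Over all 4902 sites with at least 10 molecules in these cells for which a transcript window could be read, 67.1% of the windows held AATAAA and 14.9% ATTAAA alone. The window of Tdgf1 held neither, which says only that these letters do not occur in it.

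Esrrb, an orphan nuclear receptor that Tcf7l1 represses, was the one of the 5 markers found in all 33 cells. Its molecules per cell ran from 2 to 22 with a median of 9, and its level over the culture was 8.14 per 10000 (95% Poisson interval 7.25 to 9.12), which like all such intervals here covers counting error only. Nanog, the homeodomain factor of the naive network, was seen in 32 cells with 0 to 15 molecules (median 4) and 4.67 per 10000 (4.00 to 5.42). The single cell without a counted Nanog molecule, A3, held 16 of Esrrb. Tdgf1 had 0 to 20 molecules (median 5) and Klf2, a Krüppel-like factor, 0 to 16 (median 5), each in 31 cells. Zfp42 was the sparsest marker, in 26 cells with 0 to 7 molecules (median 2). The ranges of all 5 overlapped between batches, with the highest count of each in batch 2. Cells of batch 2 were deeper (median 13274.5 molecules, against 10230 in batch 1), which this order of counts does not allow for. Pooled levels in batches 1 and 2 were 4.18 and 5.11 per 10000 for Nanog and 8.03 and 8.25 for Esrrb.

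**Figure D1:**
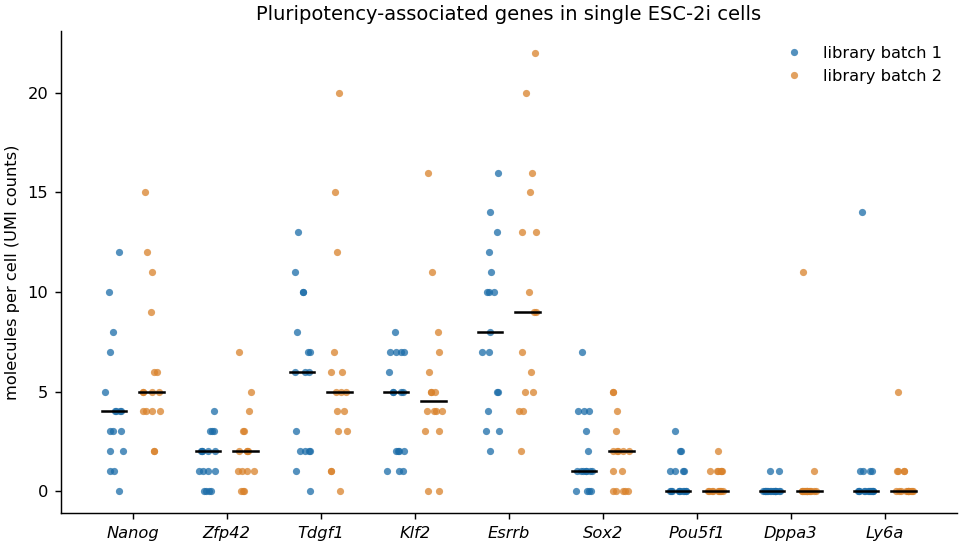
Molecules per cell (UMI counts, linear axis) of 9 pluripotency-associated genes in the 33 ESC-2i cells, 1 point per cell, with the 17 cells of library batch 1 and the 16 of batch 2 drawn apart and a bar at each batch median. The 5 markers overlap between batches, while Dppa3 and Ly6a sit at or near 0 in all but a few cells, with single cells at 11 and 14.

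Across the 15 naive factors listed, all had at least 1 molecule and together they made 41.5 per 10000 (39.5 to 43.6), beside 28.5 in ESC-FCS and 0.527 in NSC. Tfcp2l1, a factor downstream of STAT3, was the most abundant with 318 molecules, 8.63 per 10000 beside 2.74 in ESC-FCS. Tbx3 stood at 1.57 per 10000 beside 0.309 in ESC-FCS. Klf4, a factor used in reprogramming, had 20 molecules in 13 cells and Gbx2 2 molecules in 2 cells. The naive list varied 2.93-fold between its lowest cell, B1 (22.5 per 10000), and its highest, E1 (66.0).

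The 10 core factors reached 22.2 per 10000 (20.7 to 23.8), of which Trim28, a chromatin corepressor, supplied 410 of 819 molecules. Sox2 had 60 molecules in 24 cells, with 0 to 7 per cell. Pou5f1, which encodes the pluripotency factor Oct4, had 19 molecules in 14 cells, at most 3 in a cell, all at 1 site 3 nt from the annotated end. Reads that matched more than 1 place in the genome were discarded by the authors, which lowers genes with close copies elsewhere, and Pou5f1 has processed pseudogenes. Its level, 0.516 per 10000, is therefore uncertain as a measure of the gene. Utf1, a chromatin-bound factor, and Lin28a, an RNA-binding protein that rises as cells leave the naive state, stood at 1.30 and 0.299 per 10000 beside 7.32 and 2.60 in ESC-FCS. Among 14 effectors of pluripotency, the mitochondrial protein gene Chchd10 (724 molecules) and Tdh, the threonine dehydrogenase on which mouse ESC depend (539 molecules), were present in all 33 cells. In NSC neither had a molecule.

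Genes of other states were sparse. The 12 formative and primed genes made up 3.07 per 10000 (2.53 to 3.69), and their largest member was Nodal with 53 molecules in 26 cells. The de novo DNA methyltransferase gene Dnmt3b had 21 molecules and its cofactor Dnmt3l 24, at 0.570 and 0.652 per 10000 beside 2.16 and 3.35 in ESC-FCS. Lefty1, Lefty2, Sox3 and Cer1 were at 0. No molecule of a 2-cell-like gene was counted, although only 2 of the 11 listed had a row in the table, and 0 molecules over the 33 cells allow a level of up to 0.0814 per 10000 (3 counts). The 12 neural markers made up 0.407 per 10000 (0.228 to 0.672), beside 51.9 in NSC, with Pax6 and Sox9 at 0. Of fibroblast markers 1 molecule was seen. Of primitive endoderm markers, 26 of 27 molecules belonged to the laminin gene Lama1, 9 of them in cell D6, and Gata4 had 1. The trophectoderm list stood at 1.06 per 10000 (0.753 to 1.45), mostly Krt8 (20 molecules), with 10 molecules of Eomes in 7 cells. Cell D6 held the most molecules of Krt8 too (5).

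Targets of the pathways that the medium acts on were also read out. The 12 ERK targets listed made up 5.08 per 10000 (4.37 to 5.86), beside 5.82 in ESC-FCS and 25.0 in NSC. The ETS factor Etv5 carried 149 of these 187 molecules, in 32 cells. The other ERK targets were near 0, and the feedback phosphatases Dusp6 and Dusp4 were not seen in any of the 33 cells. Of Wnt targets there were 93 molecules, 37 of them of the cyclin gene Ccnd1. LIF and STAT3 genes gave 287 molecules, of which the cyclin gene Ccnd3 made 130 and Socs2, a feedback inhibitor of cytokine signalling, 19.

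The bulk of the molecules came from genes that every cell uses. The 10 most abundant genes took 7.91% of all molecules, the top 100 took 30.7% and the top 1000 took 60.5%. Ribosomal protein genes filled 9 of the first 10 places, led by Rps20 (67.8 to 145 per 10000 in single cells, median 113) and Rpl13 (69.1 to 165, median 108). The remaining place was taken by Mt1, a metallothionein that binds zinc and copper, with 2358 molecules. Mt1 spanned 11.2 to 103 per 10000 (median 61.9) and stood at 17.9 in ESC-FCS and 6.52 in NSC. Its neighbour Mt2 had 1207 molecules, 32.8 per 10000 beside 11.9 in ESC-FCS. Asns, the asparagine synthetase gene of the amino acid response, had 606 molecules in all 33 cells, at 16.5 per 10000 beside 3.31 in ESC-FCS and 8.03 in NSC.

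How much a process varied from cell to cell was followed with gene lists, 16 of 29 of which reached 10 per 10000 and 500 molecules. For each list the squared coefficient of variation (CV2, the variance over cells divided by the squared mean) of molecules per 10000 was set beside the CV2 that counting alone would give. In all 16 the CV2 was at least 2 times the counting CV2, and in 14 when the counting CV2 was taken from the depth of each cell. Within batch 1 the count was 10 and within batch 2 it was 15. The capture of RNA also differs between cells and was not part of the counting value.

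**Figure D2:**
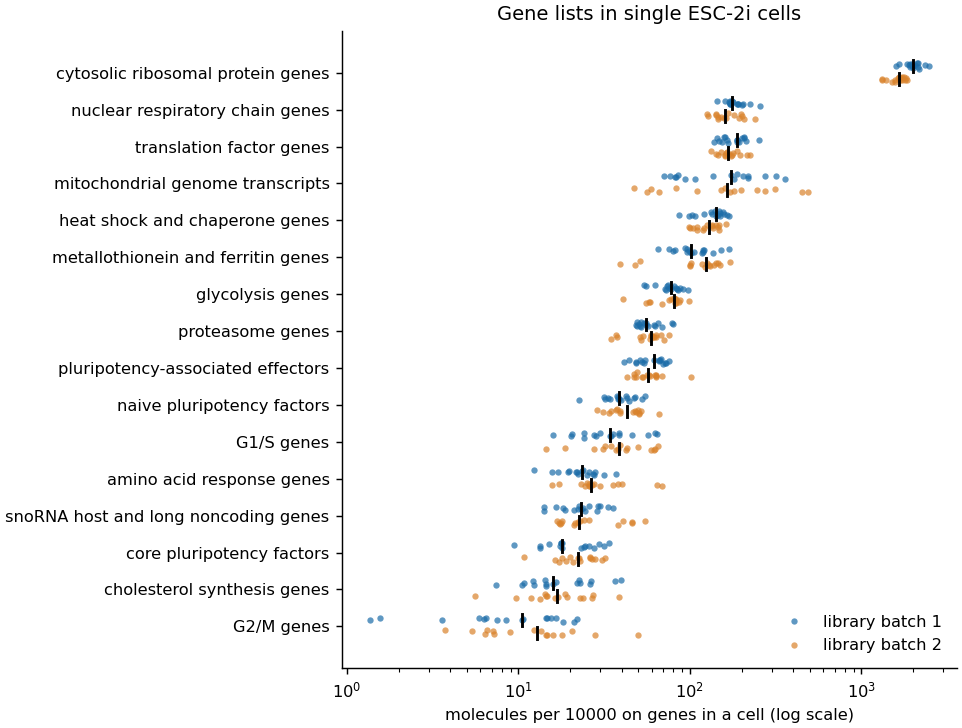
Molecules per 10000 molecules on genes (log axis) of 16 gene lists in the 33 ESC-2i cells, 1 point per cell, with the cells of library batches 1 and 2 on separate lines and a bar at each batch median. The ribosomal list lies higher in batch 1 than in batch 2, and the mitochondrial and G2/M lists spread the furthest.

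Genes of mitosis (G2/M) had a CV2 of 0.532 against a counting CV2 of 0.0655. Their sum ran from 1.37 per 10000 in cell D1 to 49.5 in cell F1, with a median of 10.6. F1 held the most molecules of Ccnb1 (9), Birc5 (10), Tpx2 (6), Ccnb2 (7) and Ccna2 (7), which act in the entry to and passage through mitosis. With all 33 cells this was the largest CV2 of the 16 lists, and without F1 it was 0.322, below that of the mitochondrial RNAs. The sort was set to the DNA content of G0 or G1, and the level of mitotic genes in F1 is given as measured. Genes of the G1/S transition (DNA replication) ran from 14.5 to 64.8 per 10000 (median 35.4), with a CV2 of 0.154. Their largest members were Mcm7 (189 molecules) and Mcm2 (183) of the replicative helicase and Uhrf1 (156), which maintains DNA methylation. Cells with more molecules tended to have a higher share of G1/S genes (Pearson r = 0.49 with the depth of the cell over 33 cells, 0.37 in batch 1 and 0.55 in batch 2).

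Amino acid response genes ranged from 12.3 per 10000 in cell D1 to 69.2 in H5 (median 25.8). Cell F3 followed with 64.0 and held the most molecules of Atf4 (12), the transcription factor of this response, of Slc3a2 (20), Ddit3 (5), Aldh18a1 (6) and Mthfd2 (4). The CV2 of this list fell from 0.185 to 0.128 without H5. Metallothionein and ferritin genes ran from 39.3 in G5 to 171 in G6, and cholesterol synthesis genes from 5.62 in G5 to 39.5 in D3. G5 (39.3), H5 (47.9) and F3 (51.3) were the 3 lowest cells for metallothionein and ferritin genes, so that the highest pair of cells for the amino acid response was among the lowest for this list.

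Ribosomal protein genes gave 65735 molecules, with the smallest CV2 of the 16 lists (0.0225, counting CV2 0.000502). That was 44.8 times the counting value, a ratio below only that of the mitochondrial RNAs (75.3) among the 16. This ratio grows with the number of molecules in a list, so it cannot say which list was the steadiest. Ribosomal protein genes took 1967 per 10000 in batch 1 and 1621 in batch 2, and within the batches the CV2 was 0.0116 and 0.0107. Translation factors (0.0251), chaperones (0.0279), nuclear respiratory chain genes (0.0289) and glycolysis genes (0.0297) followed. Genes with the least variation for their mean, among those with a normalized mean of at least 10, were Rps4l (CV2 0.0557 against a technical 0.131), Eif4a1, Rpsa, Eif5a and Rpl8, all of the translation machinery.

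Single genes were tested by the method the study names. The CV2 of a gene must exceed that of a curve fitted to ERCC transcripts, at the mean of the gene, plus a margin of 0.25. For the 33 cells the curve was fitted to ERCC transcripts with a normalized mean of at least 2.59. Below that mean the technical CV2 is an extrapolation, which holds for most calls, such as Dppa3 (mean 0.548) and Ly6a (0.617). Of 3616 genes with a normalized mean above 0.5, 22 were called variable at an adjusted p below 0.1, which is 0.608% (chi-square test, Benjamini-Hochberg adjustment over all genes tested), while 93 (2.57%) had an unadjusted p below 0.05. The calls comprised 6 RNAs of the mitochondrial genome and 16 other gene IDs. Of the 22, 4 genes were still called when the cell with the most molecules of them was left out. A further 11 were then tested and not called, and 7 fell below the limit on the mean. Falling below that limit leaves a gene untested and is not a loss of its variation.

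**Figure D3:**
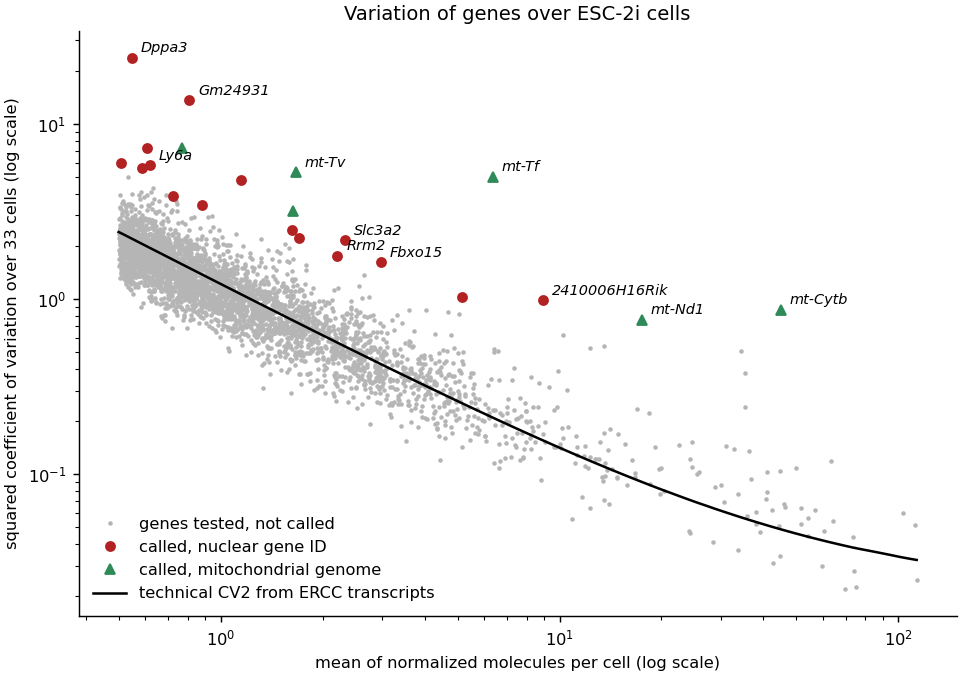
Squared coefficient of variation over the 33 ESC-2i cells against the mean of normalized molecules per cell (both axes log), 1 point per gene for 3616 genes, with the curve fitted to ERCC spike-in transcripts. The 22 genes called variable are coloured, as circles for 16 gene IDs outside the mitochondrial genome and triangles for its 6 RNAs, and Dppa3 lies highest at a CV2 of 23.8.

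None of the 5 markers was called. For Nanog the CV2 was 0.489 against a technical 0.260 (p = 0.537, adjusted p = 1). For Zfp42 it was 0.803 against 0.715 (p = 0.732), for Esrrb 0.240 against 0.165 (p = 0.973), for Klf2 0.313 against 0.311 (p = 0.980) and for Tdgf1 0.441 against 0.254 (p = 0.673). Without the margin, Nanog passed (adjusted p = 0.0638) and the other 4 did not. Over the naive list 0 of 14 tested genes were called (1 at an unadjusted p below 0.05) and over the core list 0 of 7 (0). Of ribosomal protein genes 0 of 71 were called (0 at an unadjusted p below 0.05). The ratio of CV2 to technical CV2 had a median of 1.20 over the naive genes and 0.938 over all genes tested.

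Dppa3 (Stella), which protects DNA methylation in the early embryo, had the largest CV2 of the called genes, 23.8 against a technical 2.21 (adjusted p = 1.72e-44). It had 14 molecules in 4 cells, 11 of them in cell H5, and 0 in 29. All 11 in H5 lay at the annotated end of the gene and rested on 132 reads. The other 3 molecules, 1 in each of 3 cells, lay 14414 or 14495 nt past the end of the gene. At its own end, Dppa3 was therefore seen in a single cell. Without H5, the mean of Dppa3 was below the limit for the test. That cell thus decided both whether the gene was tested and its p-value. Fbxo15, a target of Oct4 and Sox2, was called as well (96 molecules in 26 cells, adjusted p = 0.00356), and its highest cell was again H5 with 14. Without H5 its adjusted p was 1. H5 held 12 molecules of Nanog and 2 of Esrrb. The pluripotency-associated effectors had 2 of 12 tested genes called, a list drawn up with these calls known.

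Ly6a (Sca-1), a surface antigen of stem and progenitor cells of several tissues, had 27 molecules in 10 cells, of which 14 were in cell A6, 5 in F1 and 1 in each of 8 others (CV2 5.80 against 1.96, adjusted p = 4.25e-04). All 27 lay at 1 site. Without A6, its mean was below the limit for the test. Ly6g6e of the same family had 15 molecules in 8 cells, 14 of them in batch 2 (adjusted p = 0.0105). The RNA ends of Dppa3, Ly6a and 2 further called genes are shown because their counts in single cells carry these calls, with capitals as above.
Dppa3 (chr6:122630240-122630269, plus strand): ttccagaaatttgtAATAAAagcatttttg
Ly6a (chr15:74994877-74994906, minus strand): gttgagtccAATAAAccctttgttctccca
Slc3a2 (chr19:8707572-8707601, minus strand): tgtcttcaAATAAAaacatcacccctgcct
2410006H16Rik (chr11:62604776-62604805, plus strand): ccttttaaaAATAAAcatttgtttataaac

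Cell F3 was the highest cell for 5 of the 22 calls. Slc3a2, the heavy chain of amino acid exchangers, had 20 of its 83 molecules there, against at most 7 in any other cell. The small nucleolar RNA host gene 2410006H16Rik had 53 of 320 molecules in F3 and at most 26 elsewhere (adjusted p = 0.00316). Zfp518b had 8 of 20, and the gene ID ENSMUSG00000097188, without a symbol in the annotation used, 33 of 186 against at most 10. For Slc3a2, 2410006H16Rik and ENSMUSG00000097188 the adjusted p was 1 without F3. F3 had 14998 molecules, more than the median, and the lowest shares of proteasome genes (34.7 per 10000) and translation factors (132).

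In other calls the molecules were spread over more cells, although most of these calls also needed the highest cell. Rrm2, the ribonucleotide reductase subunit that rises in S phase, had 91 molecules in 21 cells, with 14 and 13 in the highest (CV2 1.76 against 0.564, adjusted p = 0.0261), and it lost the call without H2 (adjusted p = 0.194). It was the 1 of 14 G1/S genes called. P2rx7, an ATP-gated channel gene, had 57 molecules in 20 cells, with 8 and 6 in the highest (adjusted p = 0.00928, and 0.261 without G2). Agrn, the gene of a basement membrane proteoglycan, had 54 in 21 (adjusted p = 0.00236, and 1 without E6). The call of mt-Cytb, the cytochrome b gene of complex III, held without any 1 cell, at 9.40 to 185 per 10000 (CV2 0.867 against 0.0484, adjusted p = 4.01e-05). Besides mt-Cytb, mt-Tf and Gm10801 were called in each of the 33 fits that left out 1 cell.

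Where the molecules of a called gene ID lay bears on what was called. All 30 molecules of Gm24931 lay at 1 site 4785 nt past the gene, with 17 and 10 in the highest cells, and it was the one gene called in both batches. All 23 of Gm6871 lay 1388 nt past the gene and 45 of 46 of Gm10801 lay downstream of it. When sites downstream of genes were left out, an alternative chosen after seeing the data, 16 of 3402 genes were called, 14 of which were among the 22. In the culture as a whole such sites took 5.31% of molecules, while 57.9% lay within 10 nt of an annotated end, 18.9% within 200 nt and 15.1% elsewhere in the terminal exon. In single cells the first of these shares was 55.0 to 61.0%.

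The batches held different cells of the culture and gave different calls. Fitted alone, batch 1 had 9 of 3277 genes called (0.275%) and batch 2 had 28 of 4075 (0.687%), and 1 was called in both. Of the 9 genes from batch 1, 6 could be tested in batch 2 and 2 of these had an unadjusted p below 0.05 there, beside 2.73% of the 2860 genes tested in both. Of the 28 from batch 2, 10 could be tested in batch 1 and 1 passed, beside 1.19%. Across the genes tested in both, the ratio of CV2 to technical CV2 had a Spearman correlation of 0.0963 between batches. Genes are not independent replicates, and the value describes how far the order of genes by excess variation was shared.

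RNAs of the mitochondrial genome, which the study set aside in its own analyses, are present in the deposited molecule table and were the list with the most calls, 6 of 15 tested genes. Their sum ran from 47.3 per 10000 in cell E1 to 489 in G5 (median 171), with a CV2 of 0.392 against a counting CV2 of 0.00521. Batch 1 spanned 70.4 to 358 and batch 2 spanned 47.3 to 489. In these cells, mt-Cytb, mt-Nd2, mt-Nd4 and mt-Nd1, which encode subunits of respiratory complexes III and I, made up 4490 of 6334 molecules and moved together from cell to cell. Over the 6 pairs of these mRNAs the median r was 0.79 (0.64 to 0.91), with medians of 0.63 in batch 1 and 0.92 in batch 2. NSC stood at 509 per 10000 and ESC-FCS at 195.

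Besides mt-Cytb and mt-Nd1, the mitochondrial calls were the transfer RNA IDs mt-Tf, mt-Tv and mt-Tl1 and the protein-coding mt-Co3, and their molecules mostly lay elsewhere on the mitochondrial genome (17 of 28 for mt-Co3, 48 of 76 for mt-Tv and 57 of 57 for mt-Tl1). Of the 6334 molecules, 1598 (25.2%) lay outside the gene under which they were listed, spread over 27 gene IDs. For mt-Tf, which had the lowest adjusted p of all genes, 256 of 257 molecules lay outside the transfer RNA, and for mt-Tm 490 of 491. Of the 1598, 846 (52.9%) lay in or within 100 nt of mt-Nd6 (13552 to 14070, minus strand) under 13 IDs of the plus strand. Single positions were divided among IDs, position 14141 among 5 of them. Of the molecules listed under mt-Tf, 247 were in batch 1 and 10 in batch 2, at 14.2 and 0.516 per 10000, with 112 in D6 and at most 42 in another cell. The molecules outside their gene, summed over IDs, had a CV2 of 0.585, against 4.86 for mt-Tf alone and 0.482 for the molecules inside. The large variation listed for mt-Tf was thus not shared by the sum of such molecules, and a mitochondrial transfer RNA ID in this table cannot be read as the level of that RNA.

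Whether processes rose and fell together was examined over the 120 pairs among the 16 lists, as Pearson r of log2(molecules per 10000 + 1) over cells. The shares of a cell add up to a fixed total and come from the same library, so no p is given. In batch 1, 20 pairs had an r of at least 0.4 in size, and in batch 2 12 of these had the same sign and 5 were again at 0.4 or more. Of all 120 pairs 29.2% reached that size in batch 2, counting either sign. Over the 120 pairs, the r of one batch had a correlation of 0.099 with that of the other. Most covariation seen in a batch of 17 or 16 cells was thus not seen again in the other.

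The pairs of lists that kept their size and sign were few. The 5 of 20 had to match in sign as well, whereas the 29.2% of all 120 pairs in batch 2 counts either sign. These shares therefore cannot say whether the pairs chosen in batch 1 came back more often than other pairs. The pairs are therefore listed as a description of these cells. Cholesterol synthesis went with metallothionein and ferritin genes (r = 0.59 over 33 cells, 0.58 in batch 1 and 0.64 in batch 2). Nuclear respiratory chain genes went with ribosomal protein genes (0.56, 0.44 and 0.57), and amino acid response genes with mitochondrial RNAs (0.47, 0.42 and 0.54). Naive factors went against nuclear respiratory chain genes (-0.50, -0.54 and -0.43), and small nucleolar RNA hosts against mitochondrial RNAs (-0.42, -0.44 and -0.43). With each cell thinned to the depth of the shallowest, these last r values were -0.61 and -0.33. Per ERCC molecule, a scale on which all 120 pairs of lists had a positive r, they were 0.44 and 0.013. G1/S and G2/M genes had an r of 0.51 (0.62 and 0.35). The batches differed the most for the amino acid response against metallothionein and ferritin genes, at 0.27 in batch 1 and -0.76 in batch 2, the batch that held F3, H5 and G5.

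**Figure D4:**
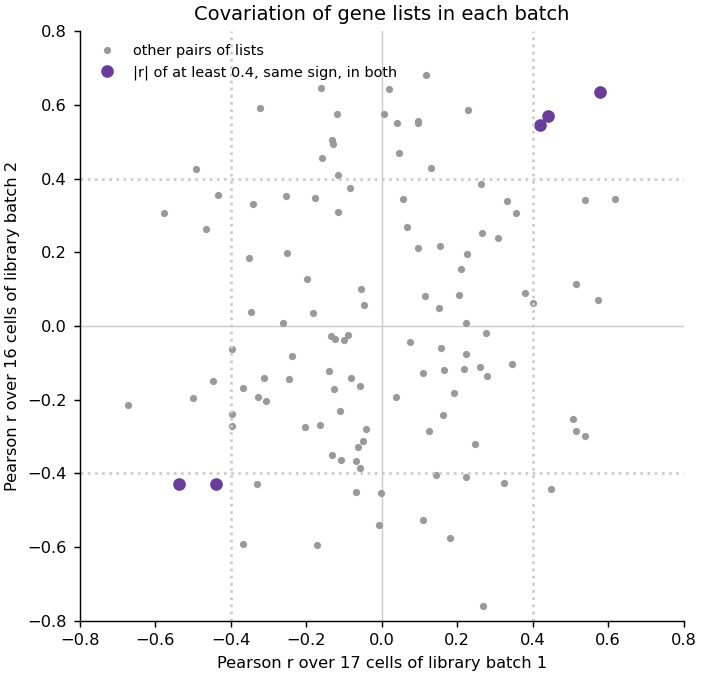
Pearson r of each of 120 pairs of gene lists over the 17 ESC-2i cells of library batch 1 (horizontal axis) and the 16 of batch 2 (vertical axis), 1 point per pair, with dotted lines at 0.4 and -0.4. The 5 pairs beyond the lines with the same sign in both are drawn large, and the rest form a cloud with a correlation of 0.099 over all 120 points.

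Inside the lists, members moved together to different degrees. Among 907 genes with a normalized mean of at least 2, the mean r of gene pairs was 0.013. It was 0.38 among 10 mitochondrial IDs, 0.30 among the metallothioneins Mt1 and Mt2 and Fth1, 0.24 among 10 G1/S genes and 0.23 among 52 ribosomal protein genes (0.13 and 0.14 within batches). Respiratory chain genes of the nucleus reached 0.14. The naive factors did not move together (mean r -0.03 among 6 genes, -0.08 in batch 1 and 0.05 in batch 2), and neither did the 3 core factors (-0.02) or the 8 effectors (0.00). Cells rich in one naive factor were thus not in general rich in the others at this depth.

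Among the 272 genes whose mean reached 5 molecules per cell, 38 of 36856 pairs had an r of at least 0.6 in both batches. Several of these are pairs of IDs that overlap in the genome, as with Rpl37 and Snord72 (0.93 and 0.87) and Nme2 and Gm20390 (0.73 and 0.64). Whether such IDs share a signal was not tested. Rps21 and the processed pseudogene Rps13-ps1 had 0.86 and 0.87. Others were mRNAs of the mitochondrial genome, with mt-Nd4 and mt-Cytb at 0.87 and 0.96. Among nuclear genes apart on the genome, Rps21 went with Rpl36 (0.74 and 0.79), Mif with Rpl39 (0.68 and 0.82), and Uqcrh, a complex III subunit, with Selenoh (0.60 and 0.64). Of the 10 highest pairs of batch 1, 6 were at 0.5 or more in batch 2, and the rest included Rpl6 with the pseudogene Gm5963, which turned from 0.81 to -0.70. Over 32585 pairs of nuclear genes on different chromosomes, the top 100 pairs of batch 1 averaged 0.72 there and 0.14 in batch 2.

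The share of molecules that came from each chromosome was compared between cells, a comparison chosen after the values were seen and given with no test. It used 12765 genes and 268565 molecules, without mitochondrial RNAs, ribosomal protein genes, predicted genes and genes over 0.5% of all molecules, and each cell was set against the other 32. Of 660 ratios of observed to expected molecules, 3 lay more than 5 counting standard deviations from expectation, and the other 657 ratios lay between 0.701 and 1.35. Chromosome 6 in cell D1 gave 154 molecules where 264 were expected, a ratio of 0.582 (95% Poisson interval 0.494 to 0.682). Split at its median molecule, the chromosome had ratios of 0.601 and 0.566 in its parts, and 24 of 28 genes with at least 2 expected molecules lay below expectation (85.7%, beside a median of 56.7% in the other cells). Chromosome X in cell G5 gave 19 molecules where 97.5 were expected, a ratio of 0.195 (0.117 to 0.304), with 0.207 and 0.183 in its parts. All 7 genes with at least 2 expected molecules lay below expectation, beside a median of 51.7% in the other cells. Chromosome 8 in B1 gave 364 where 275 were expected, a ratio of 1.32 (1.19 to 1.47), with 1.39 and 1.25 in its parts. Of its 16 genes with at least 2 expected molecules, 6 lay below expectation (37.5%), within the 21.1 to 86.7% of the other cells. Single ratios of chromosome X were as high (1.35 in G2), with fewer molecules expected.

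**Figure D5:**
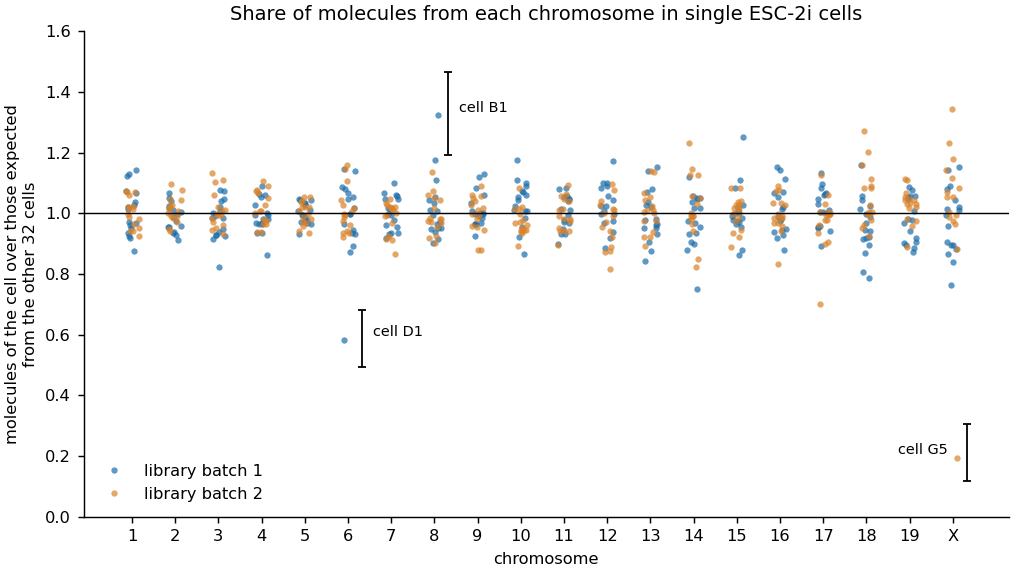
Molecules of each chromosome in each of the 33 ESC-2i cells divided by the number expected from the other 32 cells (linear axis), 1 point per cell, coloured by library batch, with 95% Poisson intervals drawn for 3 cells. Chromosome 6 of D1 (0.582) and chromosome X of G5 (0.195) lie below all other points, and chromosome 8 of B1 (1.32) above the other 32 cells for that chromosome.

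With all genes in place of the selected ones the ratios were 0.336 for X in G5, 0.610 for chromosome 6 in D1 and 1.23 for chromosome 8 in B1. Of all 660 intervals, 12.9% left out 1, so such intervals are too narrow for the spread between cells. G5 was also the shallowest cell (5342 molecules), the highest for mitochondrial RNAs and the lowest for metallothionein and ferritin, cholesterol synthesis and nuclear respiratory chain genes. B1 had the highest share of ribosomal protein genes (2465 per 10000) and the lowest of naive factors. DNA was not measured in these cells, and the part that depth or RNA content had in these 3 ratios was not tested.

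Rps27l and Skp1a, a pair of genes with several cleavage sites, were also read in this culture. Rps27l, a ribosomal protein-like gene induced by p53, had 241 molecules in 31 cells and was not called (CV2 0.502 against 0.204, adjusted p = 1). Its 3 main sites, 142, 54 and 43 molecules at positions 66949511, 66949471 and 66949456 of chromosome 9, were seen in 30, 26 and 21 cells. Skp1a, a subunit of the SCF ubiquitin ligase, had 115 molecules in all 33 cells with at most 10 in a cell (CV2 0.509 against 0.390, adjusted p = 1). Its leading sites on chromosome 11, at 52246243 and 52246670, had 46 and 44 molecules. The former had 35 of its molecules in batch 1 and 11 in batch 2, the latter 17 and 27. No test between batches was made for these sites.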

How the data were processed

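The authors aligned the reads that carried a poly-A tail to GRCm38 (named in the submitters' processing notes with HTSeq and R 3.0.2) with the ERCC sequences appended. They removed reads that aligned to more than 1 place or to A-rich positions, merged UMIs of a gene that differed by 1 base and merged cleavage positions within 12 nt. The deposited values are whole-number molecule counts per gene and cell without normalization, and the deposited site table gives counts of molecules and reads per cleavage site. Here, Python 3.11.15 with numpy 2.4.6, pandas 2.3.3, scipy 1.17.1 and statsmodels 0.14.6 was used, with edgeR 4.0.16 for TMM factors. Antisense ERCC sites were left out. Variable genes were tested on counts divided by median-ratio size factors (229 genes, 12 ERCC transcripts) against a curve fitted to 16 ERCC transcripts, as the study names it. On data simulated with 200 variable genes at this depth, a median of 147 were recovered over 10 draws, with a median of 30.5 others called among 3666 tested. At these medians, the share of false calls was above the threshold of 0.1. Simulated variable genes varied by far more than the margin of 0.25, and other genes had only the technical constant (0.0217). The draws therefore say nothing of how well modest variation is found. Genes named are the markers, the genes the study names for these cells, the genes called, the top members of each list and the highest and lowest pairs. Genes and lists were chosen with earlier results of these data known. Intervals are 95% exact Poisson. Of 19736 gene IDs in the table, 19321 had a symbol in GENCODE M21, which also gave positions. Alternatives covered the margin, spike-ins, size factors, mean limit, batches, single cells and scales. Some members of the lists and pairs are not reported here.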

Additional observations from a re-analysis of the deposited data

How the results depend on the processing

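For genes variable in ESC-2i, 22 as reported, the count was 115 with a margin of 0, 12 with a margin of 0.5, 5 with the curve fitted to all spike-in species, 12 with TMM factors, 64 with ERCC size factors applied to genes, 107 with no limit on the mean, 8 with a mean above 2, 9 in library batch 1 alone and 180 with reads in place of molecules. It was 15 with size factors from totals, 28 in batch 2 alone and, in alternatives chosen after seeing the data, 26 with antisense ERCC sites, 16 without mitochondrial genome transcripts and 16 without sites downstream of genes. Leaving out 1 cell gave 17 to 33, with 17 without E6 or H5 and 33 without D3 or G2. Of the 22 calls, 10 of 20 tested were lost with TMM factors, 17 of 22 with all spike-in species and 17 of 22 with reads. For the repeat of variable genes across library batches, 1 gene was called in both as reported and 16 with a margin of 0. For the spread of each gene list over cells, 16 lists as reported were 10 in batch 1 alone and 15 to 16 without 1 cell. For the correlation of gene lists across cells, 5 pairs as reported were 62 per ERCC molecule, a scale on which all 120 pairs had a positive r, so that a change of sign says nothing particular of a pair. There, the r of naive pluripotency factors with nuclear respiratory chain genes turned from -0.50 to 0.44, and the r of snoRNA host and long noncoding genes with mitochondrial genome transcripts from -0.42 to 0.013, while thinning to equal depth gave -0.61 and -0.33. Molecules on genes per ERCC molecule had a median of 13.2 in batch 2 against 11.9 over all cells. Except where a sentence above gives another construction (fewer cells, fewer genes or a shared scale), the cause was not tested. No paired analysis was possible because no test between groups was made and the labels give the cells no replicate numbers. The depth limits single genes most, since a gene near the mean limit rests on fewer than 1 molecule per cell.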

Other observations

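The 15 ESC-2i cells outside the gene table fell into a pair of kinds. In 5 cells at least 300 ERCC molecules were counted, with 122 to 277 molecules on genes and 0.239 to 0.537 molecules on genes per ERCC molecule. In the other 10 cells there were 5 to 81 ERCC molecules and 40 to 995 molecules on genes, and molecules on genes per ERCC molecule were 8.00 to 15.4 (median 10.9), which lies within the 5.62 to 18.8 of the 33 cells kept.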
